A study of Mus musculus with 2 samples.

Results

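Antiviral interferon-stimulated genes are 35 mouse genes that encode antiviral effectors and nucleic acid sensors, chosen by name among genes that interferon induces, with no guanylate-binding protein, immunity-related GTPase or MHC gene among them. The count tables list 31053 genes, and all 35 were found there by Ensembl ID. The cells were EpCAM-positive cells of the lungs of C57BL/6JRj mice, taken 24 h after saline or lipopolysaccharide (LPS, a bacterial cell wall component) at 2.5 mg/kg. The 4 groups were old LPS (18 months), young LPS (3 months), old control (18 months, saline) and young control (3 months, saline). Cells of each group carried their own barcoded antibody, were pooled in equal number on 1 lane, and were read from the 3′ end. The whole experiment was done on 2 occasions, so each group has 2 libraries, named replicates 1 and 2 after their lane. The labels do not state how many mice gave the cells of a library, and p-values measure the spread between these libraries. The lungs had been lavaged and their agarose-filled airways removed.

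Interferons bind receptors that activate JAK kinases, and transcription factors then bind the interferon-stimulated response element of target promoters. The products sense foreign RNA or DNA in the cytosol, stop translation, cut RNA, deplete nucleotides or hold budding virus at the membrane. Alveolar epithelial type 2 (AE2) cells make surfactant and divide to renew the alveolar lining, and influenza viruses and coronaviruses infect them. Ciliated cells move mucus out of the airways.

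Cells were sorted into classes by clustering without the 35 genes and without the other interferon lists used here, and each class was named from marker genes. Levels are given as CPM, counts scaled to the same total in every class and library. Of 11232 cells, 8867 were AE2-like (78.9%), 904 ciliated-like and 510 dendritic-like, with 494 alveolar macrophage-like and 180 club-like cells. In AE2-like cells the 12 AE2 markers summed to 96558 to 131661 CPM in LPS libraries and 274431 to 313477 CPM in control libraries. Libraries held 6228266 to 15435789 unique molecular identifiers (UMIs, 1 per captured RNA molecule). AE2-like cells of LPS libraries lay mainly in clusters led by Orm1 and Saa3, and those of control libraries in a cluster led by Sftpc and Scd1. In old LPS 2, 353 AE2-like cells (24.9%) lay in the control clusters, as did 120 (10.8%) in young LPS 2, 47 (3.68%) in old LPS 1 and 44 (4.36%) in young LPS 1. Lanes shared 2 cell barcodes, and libraries of the same lane shared 0.

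Promoters were searched for the interferon-stimulated response element, in genes that had been chosen because interferon induces them. A higher share than that of all genes is therefore not independent of the choice. RefSeq windows of GRCm38.p6, from 250 bases before to 50 bases after each start, were at hand for 27 of the 35 genes. They were not at hand for Dhx58, Zbp1, Oas2, Mx1, Rtp4, Parp9, Parp14 and Ifi27l2a. The letters GAAANNGAA, the core of the interferon-stimulated response element, were sought on either strand. They stood in a window of 16 of the 27 genes (59.3%) and of 2638 of all 27025 genes (9.76%). The 27025 genes had 32851 windows, and a match in any window of a gene counted. A match describes letters only.

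The window of Isg15, which gave the second most UMIs of the 35 genes in young LPS AE2-like cells, holds 3 overlapping GAAANNGAA matches that begin 78, 72 and 66 bases before the start. It spans chr4:156200769-156201068 on the minus strand, and capitals mark the joined matches.
Isg15: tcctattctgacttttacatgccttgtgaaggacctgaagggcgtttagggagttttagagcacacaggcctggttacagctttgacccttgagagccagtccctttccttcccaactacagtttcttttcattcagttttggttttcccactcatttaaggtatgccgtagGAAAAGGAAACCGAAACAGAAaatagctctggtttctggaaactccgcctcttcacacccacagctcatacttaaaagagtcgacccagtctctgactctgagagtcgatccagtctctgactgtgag

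Shorter stretches, each with up to 20 bases on either side of the first match, compare members of several roles. Capitals mark that match, read in the direction of the gene, so that a match on the other strand appears as its reverse complement. Ifit1, Ifit3, Ifit3b, Rsad2, Oas3 and Bst2 rose after LPS in AE2-like cells at both ages, and Trim25 was the member with the smallest LPS change in AE2-like cells. The stretches lie at chr19:34640760-34640808 (Ifit1, plus strand), chr19:34583354-34583402 (Ifit3, plus), chr19:34607750-34607798 (Ifit3b, plus), chr12:26456543-26456591 (Rsad2, minus), chr5:120777706-120777754 (Oas3, minus), chr8:71537574-71537622 (Bst2, minus) and chr11:88999374-88999422 (Trim25, plus).
Ifit1: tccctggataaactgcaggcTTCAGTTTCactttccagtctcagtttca
Ifit3: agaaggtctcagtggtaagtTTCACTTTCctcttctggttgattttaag
Ifit3b: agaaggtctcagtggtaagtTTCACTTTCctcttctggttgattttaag
Rsad2: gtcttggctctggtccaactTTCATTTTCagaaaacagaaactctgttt
Oas3: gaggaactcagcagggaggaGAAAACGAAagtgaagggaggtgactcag
Bst2: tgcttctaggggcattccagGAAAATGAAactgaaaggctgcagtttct
Trim25: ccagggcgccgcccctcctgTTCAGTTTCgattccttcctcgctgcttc
The stretches of Ifit3 and Ifit3b were identical at 49 of 49 bases. Their windows, set against each other at a shift of 32 bases, were identical at 201 of 268 bases (75.0%). Ifit3 and Ifit3b are near copies, how shared reads were counted is not given in the sources used here, and their separate counts are therefore uncertain.

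After LPS, AE2-like cells of both ages carried far more RNA of nearly every antiviral gene. The 35 genes together made up 1986 and 1852 CPM in old LPS and 3286 and 2485 CPM in young LPS, against 311 and 301 CPM in old control and 263 and 263 CPM in young control. In old mice 32 of the 33 tested members rose, where 25.0% of the 11411 genes tested did, and 0 fell, where 23.0% of all genes did. In young mice 32 of 33 rose, where 21.8% of all genes did, and 0 fell, where 18.2% of all genes did. The median log2 change was 3.27 in old and 3.94 in young mice, and that of all tested genes was -0.01 at either age. With the members that had 0 control UMIs set at their lower bound, the medians were 3.26 and 3.71. Calls are from edgeR's quasi-likelihood test at an adjusted p under 0.05, and log2 changes carry their standard error. Oas1a and Oas2 were too low to test, and 10 of the 33 (Dhx58, Ifi44, Ifit1, Ifit2, Ifit3b, Mx1, Oas3, Oasl1, Rsad2 and Slfn2) passed the count filter only through LPS libraries, so that they had to differ. The exception at both ages was Trim25.

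**Figure D1:**
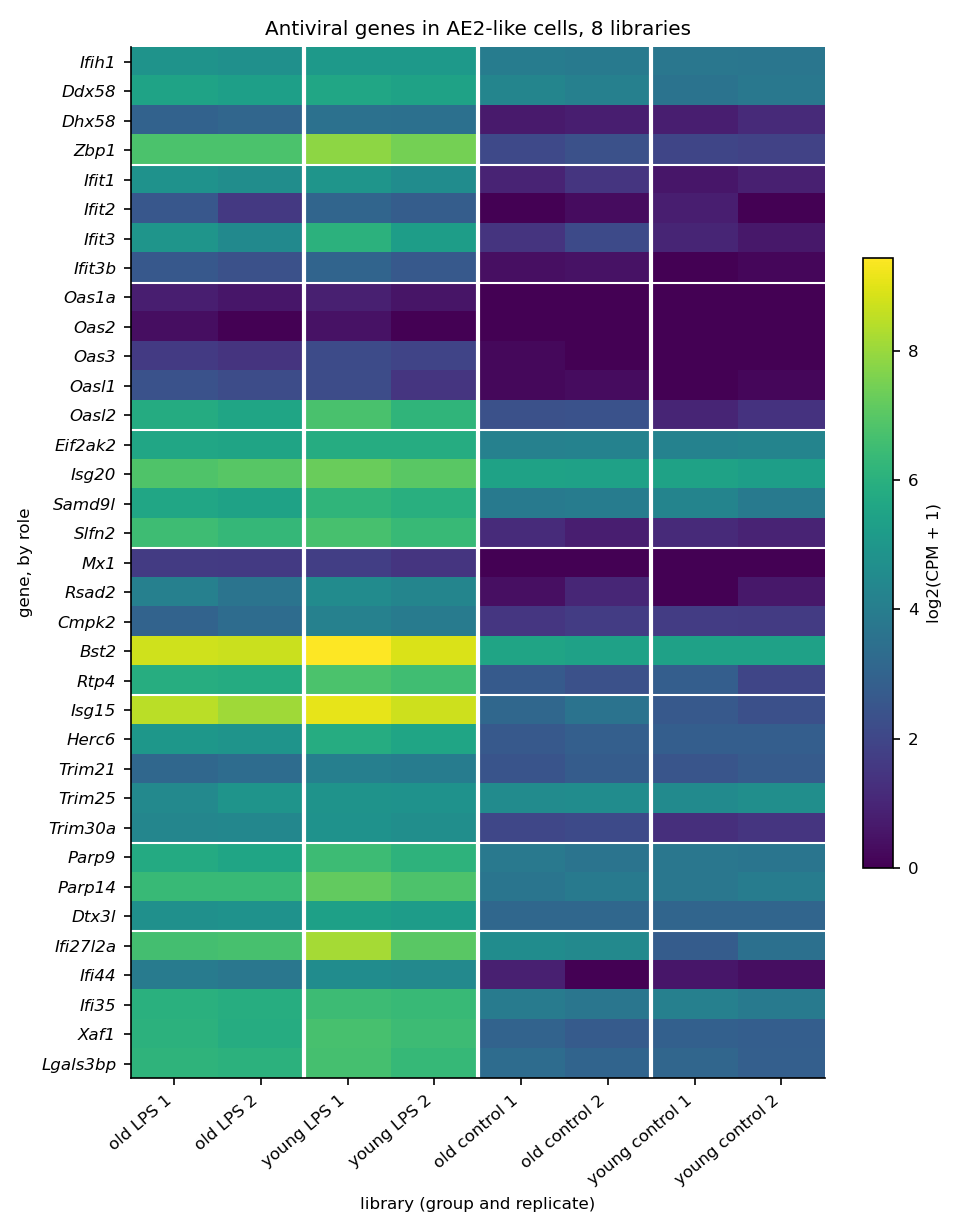
Level of each of the 35 antiviral genes (rows, grouped by role) in AE2-like cells of the 8 libraries (columns), as log2(CPM + 1), with lighter colours for higher levels. The 4 LPS columns on the left are lighter than the 4 control columns in nearly every row; Trim25 is an exception.

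Markers of other cells were set beside these changes. In AE2-like cells the 11 monocyte and macrophage markers summed to 1084 to 2048 CPM in LPS libraries and 120 to 178 CPM in control libraries. Cd14 gave 2038 and 1650 CPM of this in old LPS and 1242 and 1069 CPM in young LPS. Ly6c2 went the other way, with 8.55 to 18.5 CPM in LPS libraries and 19.7 to 44.6 CPM in control libraries. Csf1r stayed at or under 0.761 CPM and Adgre1 at or under 0.134 CPM in all 8 libraries. The 4 platelet markers summed to 133 to 203 CPM in LPS libraries and 15.2 to 24.1 CPM in control libraries, nearly all of it Pf4, with Gp9 at 0. Of the 11 alveolar macrophage markers (65.0 to 74.3 CPM with LPS, 11.6 to 24.7 CPM without), Plet1 gave 55.1 CPM or more in every LPS library. Of the 8 endothelial markers (18.1 to 32.3 CPM with LPS, 6.28 to 16.1 CPM without), Pecam1 gave 17.6 CPM or more in every LPS library. The 8 B cell markers summed to 43.9 to 58.4 CPM with LPS and 35.4 to 43.1 CPM without. The 9 T cell and 7 NK cell markers summed to at most 1.60 and 0.390 CPM, with Cd3d, Cd3g, Cd4, Ncr1, Klrb1c, Klre1 and Prf1 at 0. Their part in the result was not tested.

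Among the cytosolic sensors, all 4 rose at both ages. Zbp1, a sensor of left-handed nucleic acids that can trigger necroptosis, had 107 and 109 CPM in old LPS and 226 and 176 CPM in young LPS, against 3.24 and 4.11 CPM in old control and 2.89 and 2.66 CPM in young control. LPS and control libraries were far apart, and the old LPS libraries lay below both young LPS libraries. Its log2 change was 4.86 ± 0.17 in old mice (adjusted p = 4.14e-12) and 6.19 ± 0.18 in young mice (adjusted p = 1.34e-12). Ifih1, which encodes the long double-stranded RNA sensor MDA5, had 27.9 and 26.0 CPM in old LPS and 32.8 and 32.6 CPM in young LPS, against 14.5 and 13.6 CPM in old control and 12.5 and 12.0 CPM in young control. This was the smallest change among the sensors, with log2 changes of 0.94 ± 0.13 and 1.42 ± 0.14 in old and young mice. Ddx58 (RIG-I) lay between them at 1.26 ± 0.13 and 1.89 ± 0.14. Dhx58 (LGP2), which modulates both, started at 0.616 to 1.20 CPM in control libraries and changed by 3.39 ± 0.32 and 3.31 ± 0.31.

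The 4 IFIT genes, whose products bind RNA with foreign 5′ ends, rose at both ages, and their control levels were very low. Ifit3 had 29.4 and 21.4 CPM in old LPS and 66.9 and 36.9 CPM in young LPS, against 1.70 and 3.36 CPM in old control and 0.963 and 0.533 CPM in young control. Of the 27 control UMIs behind the higher old control library, 20 came from 1 cell. Its log2 change was 3.27 ± 0.52 in old mice and 6.20 ± 0.67 in young mice. Ifit2 had 4.92 and 1.96 CPM in old LPS and 7.36 and 5.95 CPM in young LPS, against 0 and 0.249 CPM in old control and 0.722 and 0 CPM in young control. With 2 UMIs in old control and 3 in young control, the ratio was 23.2 (95% exact counting interval 6.22 to 195) in old mice and 25.5 (8.51 to 126) in young mice. Such intervals cover counting error only. Ifit1 changed by 4.21 ± 0.25 in old and 5.23 ± 0.31 in young mice. Ifit3b changed by 3.68 ± 0.46 in old mice, and its ratio over 1 control UMI in young mice was 71.0 (12.5 to 2831).

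The OAS enzymes make the 2′-5′ oligoadenylates that switch on RNase L. Oas3 had 2.01 and 1.65 CPM in old LPS and 3.42 and 2.87 CPM in young LPS, against 0.154 and 0 CPM in old control and 0 and 0 CPM in young control. It was at least 12.1-fold higher in young LPS than in young control, taking 3 UMIs over the group as the limit that a count of 0 allows. In old mice, over 1 control UMI, the ratio was 25.3 (95% exact counting interval 4.30 to 1022). Oasl1, which in mice holds back translation of the transcription factor IRF7, had 4.19 and 3.62 CPM in old LPS and 3.55 and 1.76 CPM in young LPS, against 0.154 and 0.249 CPM in old control and 0 and 0.133 CPM in young control. It had the smallest fitted change of the family in young mice after LPS, where its ratio over 1 control UMI was 29.9 (5.09 to 1209). Oasl2 gave most of the family's UMIs, with 54.5 and 46.4 CPM in old LPS and 106 and 71.8 CPM in young LPS, against 4.01 and 4.23 CPM in old control and 0.963 and 1.60 CPM in young control. It changed by 3.60 ± 0.24 in old mice and 6.00 ± 0.30 in young mice. Oas1a reached 0.788 CPM at most, with 0 UMIs in all control libraries, and Oas2 had 3 UMIs in old LPS and 3 in young LPS.

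Of the other RNA-directed effectors, Slfn2, a schlafen protein known for holding T cells in quiescence, had 90.6 and 77.9 CPM in old LPS and 104 and 82.0 CPM in young LPS, against 1.23 and 0.747 CPM in old control and 1.20 and 0.933 CPM in young control. The libraries of the 2 ages overlapped after LPS, and the log2 changes were 6.42 ± 0.23 in old and 6.47 ± 0.24 in young mice. Eif2ak2, the kinase PKR that stops translation when it meets double-stranded RNA, had 46.6 and 44.8 CPM in old LPS and 56.2 and 56.2 CPM in young LPS, against 16.6 and 17.2 CPM in old control and 17.1 and 18.3 CPM in young control. It was already present in every control library and changed by 1.43 ± 0.11 and 1.66 ± 0.12. The exonuclease Isg20 (1.51 ± 0.11 and 1.81 ± 0.12) and the translation inhibitor Samd9l (1.67 ± 0.14 and 2.11 ± 0.15) also rose.

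Of the replication and release effectors, Mx1 is a dynamin-like GTPase that blocks influenza virus in mice with an intact gene, and C57BL/6 mice carry a deletion in its gene. It had 2.10 and 2.04 CPM in old LPS and 2.36 and 1.76 CPM in young LPS, against 0 and 0 CPM in old control and 0 and 0 CPM in young control. It was therefore at least 9.61-fold higher in old LPS and at least 7.89-fold higher in young LPS than in the controls of the same age. Bst2, the tetherin that holds budding virus on the membrane, gave 20.1% of all member UMIs in young LPS, with 430 and 411 CPM in old LPS and 696 and 479 CPM in young LPS. It had 45.0 and 41.7 CPM in old control and 41.2 and 41.3 CPM in young control, and changed by 3.28 ± 0.16 in old and 3.83 ± 0.16 in young mice. Cmpk2, a mitochondrial nucleotide kinase, had 7.11 and 9.12 CPM in old LPS and 16.9 and 14.3 CPM in young LPS, against 1.85 and 2.24 CPM in old control and 2.17 and 2.13 CPM in young control. This was the smallest change of the 5 in young mice (2.85 ± 0.26). Its neighbour on chromosome 12, Rsad2, encodes viperin, which makes a chain-terminating nucleotide, and changed by 4.30 ± 0.40 in old and 5.85 ± 0.48 in young mice. Rtp4, a chaperone that also restricts flaviviruses, changed by 3.59 ± 0.19 and 4.61 ± 0.20.

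Isg15 is a ubiquitin-like protein that is joined to viral and host proteins and is also secreted. It had 353 and 271 CPM in old LPS and 542 and 427 CPM in young LPS, against 7.86 and 11.0 CPM in old control and 5.30 and 4.00 CPM in young control. LPS and control libraries did not overlap, and the log2 change was 5.03 ± 0.21 in old mice (adjusted p = 8.33e-08) and 6.75 ± 0.25 in young mice (adjusted p = 2.58e-08). In old control 2, 1 cell held 37 of the 88 Isg15 UMIs. Herc6, the main ISG15 ligase of the mouse, changed by 2.36 ± 0.16 and 3.07 ± 0.17. Trim25, which ubiquitinates RIG-I, had 21.0 and 28.8 CPM in old LPS and 28.0 and 26.8 CPM in young LPS, against 22.8 and 23.0 CPM in old control and 21.7 and 24.2 CPM in young control. These libraries overlapped, and neither the 0.13 ± 0.15 in old (adjusted p = 0.502) nor the 0.24 ± 0.15 in young mice (adjusted p = 0.230) passed the test. Trim21, a cytosolic antibody receptor, changed by 0.72 ± 0.20 and 1.56 ± 0.20, and Trim30a by 2.59 ± 0.18 and 3.96 ± 0.22.

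The ADP-ribosylation genes rose together. Parp14, a mono-ADP-ribosyltransferase, had 81.2 and 81.1 CPM in old LPS and 143 and 112 CPM in young LPS, against 11.6 and 13.7 CPM in old control and 12.3 and 14.8 CPM in young control. Dtx3l, a ubiquitin ligase that works in a complex with Parp9, had 25.7 and 27.4 CPM in old LPS and 40.7 and 36.0 CPM in young LPS, against 7.86 and 7.97 CPM in old control and 7.46 and 7.46 CPM in young control. The log2 changes in old and young mice were 2.67 ± 0.14 and 3.21 ± 0.14 for Parp14, and 1.74 ± 0.14 and 2.36 ± 0.15 for Dtx3l. Parp9 changed by 2.04 ± 0.15 and 2.68 ± 0.16; it overlaps Dtx3l on the other strand, and whether counting used strand is not given in the sources used here.

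The 5 remaining members also rose at both ages. Ifi44, an interferon-induced protein, had 14.4 and 12.4 CPM in old LPS and 22.9 and 20.6 CPM in young LPS, against 0.771 and 0 CPM in old control and 0.482 and 0.266 CPM in young control. Ifi35, a leucine zipper protein, had 63.4 and 58.6 CPM in old LPS and 87.8 and 82.0 CPM in young LPS, against 14.2 and 12.2 CPM in old control and 16.4 and 13.6 CPM in young control. These were the largest and the smallest change of the 5 in young mice, at 5.92 ± 0.43 for Ifi44 and 2.53 ± 0.13 for Ifi35. The apoptosis factor Xaf1 changed by 3.28 ± 0.16 in old and 3.94 ± 0.17 in young mice, and the secreted glycoprotein Lgals3bp by 3.08 ± 0.16 and 3.71 ± 0.17. Ifi27l2a, a small mitochondrial membrane protein gene, stood out by its spread, with 97.5 and 103 CPM in old LPS and 287 and 130 CPM in young LPS, against 23.1 and 20.8 CPM in old control and 5.78 and 10.1 CPM in young control.

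**Figure D2:**
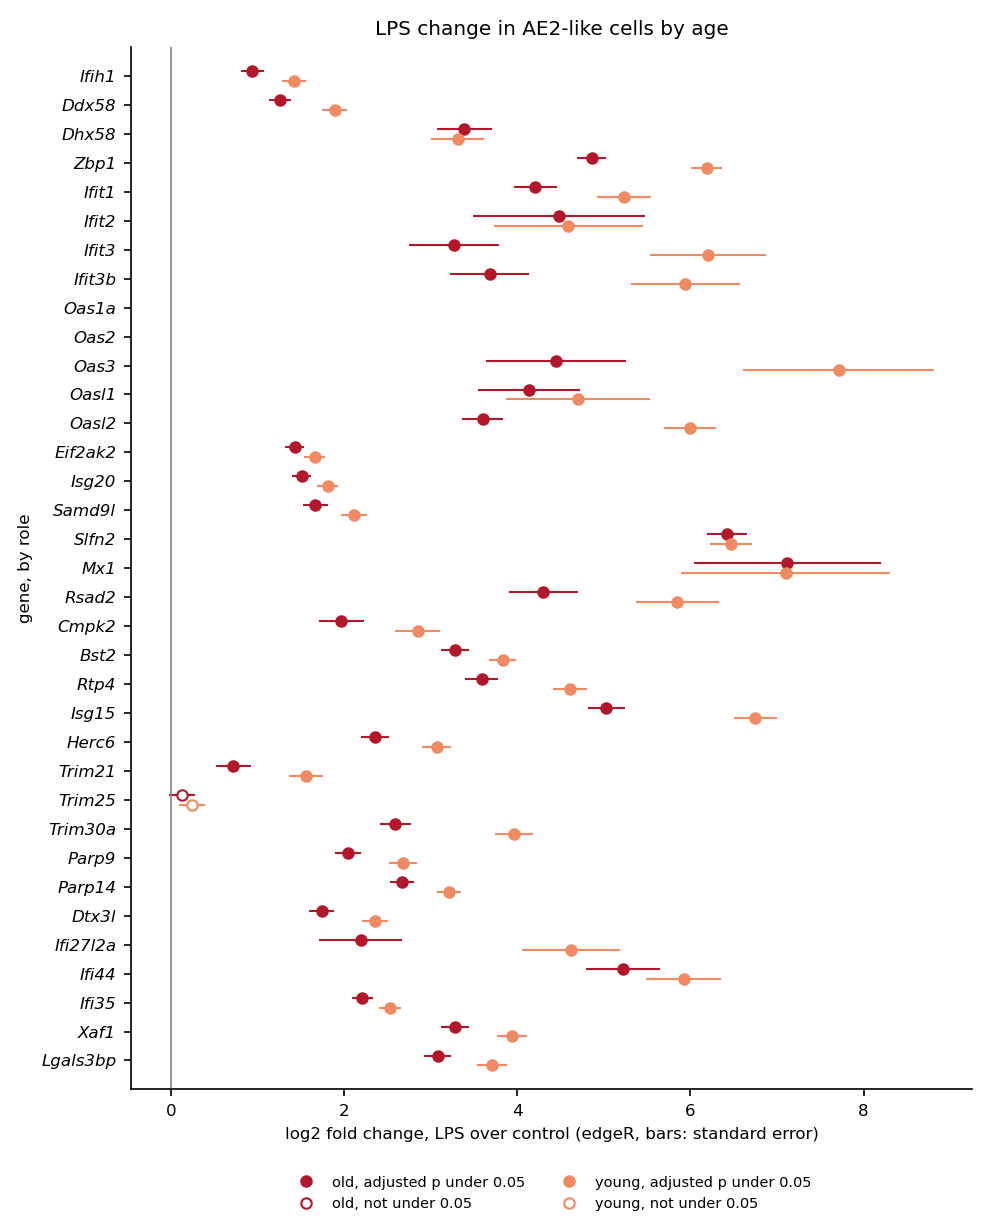
Log2 fold change of LPS over control in AE2-like cells for each antiviral gene (rows), in old mice (dark) and young mice (light), with bars for the standard error; filled points passed the test and open points did not. Trim25 has the only open points, and Oas1a and Oas2 are blank because they were not tested.

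Old AE2-like cells carried less of many antiviral RNAs after LPS than young ones. Of the 33 tested members 12 were lower in old LPS than in young LPS, where 2.40% of all genes were, and 0 were higher, where 1.58% of all genes were. The 12 were Zbp1, Oasl2, Samd9l, Cmpk2, Rtp4, Herc6, Trim21, Parp9, Parp14, Dtx3l, Ifi35 and Xaf1. The median log2 difference was -0.58 for the members and 0.00 for all tested genes. In both lanes 29 of the 35 members were lower in old LPS, and the share of all genes that were is not given here. The smallest p belonged to Zbp1, at -0.90 ± 0.11 (adjusted p = 1.79e-04), followed by Herc6 at -0.79 ± 0.12 (adjusted p = 0.00140). Old LPS libraries had 31.1 and 28.4 CPM of Herc6, against 56.6 and 46.3 CPM in young LPS. Rtp4 had 58.6 and 54.9 CPM in old LPS, against 108 and 92.8 CPM in young LPS, a difference of -0.82 ± 0.13. Parp14 differed by -0.65 ± 0.11, Cmpk2 by -0.93 ± 0.18, and Xaf1, with 66.7 and 55.9 CPM in old LPS against 104 and 87.2 CPM in young LPS, by -0.64 ± 0.11. Ifit1 (-0.03 ± 0.15), Slfn2 (-0.14 ± 0.12), Ddx58 (-0.11 ± 0.11) and Mx1 (0.02 ± 0.38) did not pass the test.

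The count of 12 rests in part on young LPS 1, which was above young LPS 2 for most members: without it 3 members were lower. It was 6 when the fit held only the groups compared and 6 when each cell was thinned to 2000 UMIs before summing, and 17 with the lane as a block, which added Isg15, Bst2, Ifi44, Lgals3bp and Ifit3. Leaving out the AE2-like cells that clustered with the other treatment, most of which were in old LPS 2, gave 14.

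Without LPS, old and young AE2-like cells differed in no member past the threshold. Of the 33 tested members 0 passed edgeR's test, with 4 at an unadjusted p under 0.05, where 0.622% of all genes passed in either direction, and the median difference of old control against young control was 0.07. Oasl2, at 4.01 and 4.23 CPM in old control against 0.963 and 1.60 CPM in young control, differed by 1.58 ± 0.49 (adjusted p = 0.253). The DESeq2 test called 1 member higher in old control, and the fit on control libraries alone called 3. The difference of the LPS change itself, old minus young, passed in 0 of 33 members, with 17 at an unadjusted p under 0.05, where 0.666% of all genes passed. Its median was -0.64, and its smallest adjusted p was 0.0676, for Zbp1 (-1.33 ± 0.31). With the lane as a block 2 members passed, where 0.421% of all genes were lower: Oasl2 (-2.35, adjusted p = 0.00686) and Isg15 (-1.71, adjusted p = 0.0187). DESeq2 called 4 and the fit with no count filter 6, and leaving out young LPS 2 gave 6, old LPS 2 gave 3, young LPS 1 gave 2 and old LPS 1 gave 1.

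The change reached most AE2-like cells, though not evenly. Zbp1 RNA was seen in 46.8% and 40.8% of AE2-like cells of old LPS and 60.8% and 51.1% of those of young LPS, against 1.97% and 2.09% in old control and 1.62% and 1.40% in young control. Control cells shared the lane, and so the free RNA, of the LPS cells, and libraries differed in depth, with a median of 7606 to 9172 UMIs per LPS cell and 5759 to 7124 per control cell. Rsad2 RNA was seen in 5.09% and 4.87% of old LPS cells and 9.81% and 8.81% of young LPS cells. At an equal depth of 2000 UMIs per cell, a cell held RNA of 2.98 and 2.52 of the 35 genes on average in old LPS and of 4.40 and 3.37 in young LPS, against 0.558 and 0.534 in old control and 0.499 and 0.496 in young control. Without thinning, the group means were 7.68 genes in old LPS and 9.25 in young LPS, against 1.64 in old control and 1.46 in young control. Thinned cells with 5 or more of the genes made up 21.0% and 16.9% in old LPS and 45.4% and 30.6% in young LPS, against 0.190% and 0.184% in old control and 0% and 0.0882% in young control. Thinning left out 3 to 31 AE2-like cells of a library for being too shallow.

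**Figure D3:**
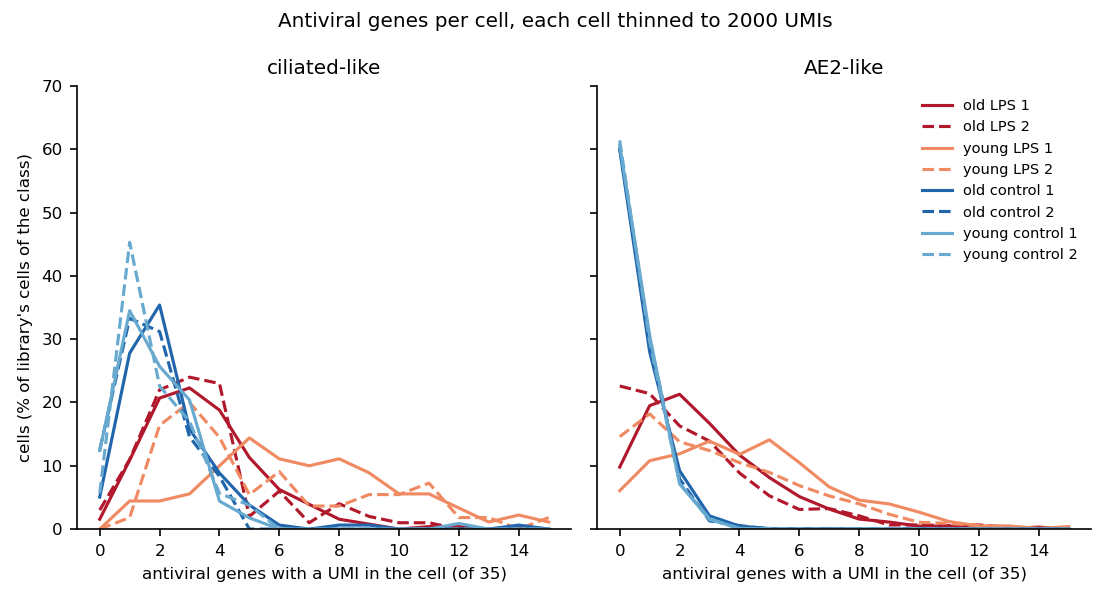
Share of cells (y axis, percent) by the number of the 35 antiviral genes with a UMI (x axis), after thinning each cell to 2000 UMIs, in ciliated-like cells (left) and AE2-like cells (right), with 1 line per library. The x axis ends at 15, and cells with more are not drawn. Cells held a mean of 3.63 and 3.43 of the genes in old LPS and 6.84 and 5.78 in young LPS, against 2.35 and 1.73 in old control and 1.84 and 1.83 in young control in ciliated-like cells; in AE2-like cells too, the means were highest in young LPS, then old LPS, then the controls.

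The 2 main AE2-like clusters of the LPS libraries differed in level. In the cluster led by Orm1, Cxcl2 and Saa3 the members summed to 2181 and 2556 CPM in old LPS (823 and 602 cells) and 4732 and 4166 CPM in young LPS (334 and 270 cells). In the cluster led by Orm1, Saa3 and Sftpd they summed to 1677 and 1604 CPM in old LPS (406 and 463 cells) and 2569 and 2047 CPM in young LPS (631 and 723 cells). Within the first 32 of the 35 members were lower in old LPS in both lanes, and within the second 26 were. How many of all genes were lower in both lanes of these clusters is not given here. These clusters were made without the members.

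Ciliated-like cells of young mice raised most of the measurable members after LPS, and those of old mice fewer. The 35 genes summed to 2703 and 2615 CPM in old LPS and 5293 and 4603 CPM in young LPS, against 1773 and 1186 CPM in old control and 1201 and 1044 CPM in young control. In old mice 9 of 28 tested members rose, where 5.70% of the 7907 genes tested did, and 1 fell, where 3.53% of all genes did. In young mice 19 of 28 rose, where 5.29% of all genes did. The median log2 change was 0.79 in old and 2.62 in young mice. Not tested were Dhx58, Ifit2, Oas1a, Oas2, Oas3, Mx1 and Trim21, and 16 of the 28 tested members passed the count filter only through LPS libraries. DESeq2 called 5 members in old and 12 in young mice, and leaving out libraries gave 7 to 9 and 13 to 23. With the lane as a block Ifi27l2a also rose in old mice (adjusted p = 0.0175), and Ifit1 and Ifit3 in young mice (adjusted p = 1.64e-04 and 0.0317). Libraries held 52 to 266 ciliated-like cells.

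Lgals3bp had 708 and 659 CPM in old LPS ciliated-like cells and 865 and 623 CPM in young LPS, against 208 and 202 CPM in old control and 193 and 106 CPM in young control. It rose by 1.73 ± 0.19 in old and 2.25 ± 0.20 in young mice. Rtp4 had 245 and 210 CPM in old LPS and 442 and 399 CPM in young LPS, against 97.5 and 73.3 CPM in old control and 69.5 and 51.1 CPM in young control. Its log2 changes were 1.35 ± 0.18 in old mice (adjusted p = 2.93e-06) and 2.75 ± 0.20 in young mice (adjusted p = 1.34e-11). Zbp1 had 116 and 80.9 CPM in old LPS and 262 and 177 CPM in young LPS, against 12.0 and 0 CPM in old control and 3.47 and 0 CPM in young control. Here 2 UMIs in young control set the ratio at 94.4 (95% exact counting interval 25.8 to 785). Oasl2 had 132 and 98.5 CPM in old LPS and 413 and 300 CPM in young LPS, against 49.3 and 18.3 CPM in old control and 24.3 and 6.81 CPM in young control. Bst2 rose by 1.35 ± 0.23 in old and 2.50 ± 0.24 in young mice, and Xaf1 by 1.25 ± 0.33 and 2.98 ± 0.33. For Slfn2 the ratio was 9.65 (95% exact counting interval 2.51 to 82.3) over 2 control UMIs in old mice and 23.2 (3.79 to 955) over 1 in young mice. Without old control 1 or without old LPS 1, Slfn2 did not pass in old mice.

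In ciliated-like cells Ifi35 and Isg15 did not pass the test, and Trim25 fell in old mice. Ifi35 was high in every group, with 510 and 594 CPM in old LPS and 440 and 379 CPM in young LPS, against 508 and 473 CPM in old control and 426 and 388 CPM in young control. Its changes of 0.16 ± 0.13 and 0.01 ± 0.14 did not pass the test. Trim25 had 28.9 and 20.6 CPM in old LPS against 50.5 and 47.7 CPM in old control (-0.93 ± 0.29, adjusted p = 0.0374). It did not pass with DESeq2, without the count filter, with only the groups compared, after thinning, without the highest doublet scores, or without any of the 4 old libraries. Isg15 had 172 and 154 CPM in old LPS and 651 and 609 CPM in young LPS, against 122 and 0 CPM in old control and 20.8 and 6.81 CPM in young control, and did not pass at either age (adjusted p = 0.579 in old and 0.0579 in young mice).

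Few cells held these UMIs in the old control libraries. In old control 1, 12 of 163 ciliated-like cells held the 101 Isg15 UMIs, 6 cells held the 51 Ifit3 UMIs, 7 cells the 44 Ifit1 UMIs and 2 cells the 13 Ifit3b UMIs. The 5 richest cells held 92.1% of those Isg15 UMIs. Old control 2 had 52 ciliated-like cells and 0 UMIs of Isg15, Ifit1, Ifit3 and Ifit3b, which allows 3 UMIs in its 269818. For Ifit3, ciliated-like cells had 67.3 and 22.1 CPM in old LPS and 429 and 365 CPM in young LPS, against 61.4 and 0 CPM in old control and 8.69 and 0 CPM in young control. Ifi27l2a had 11.3 and 67.6 CPM in old LPS and 1.98 and 19.7 CPM in young LPS ciliated-like cells, where AE2-like cells had 97.5 and 103 CPM in old LPS and 287 and 130 CPM in young LPS. Lcn2, an abundant RNA of AE2-like cells after LPS, reached 5682 to 7891 CPM in ciliated-like cells with LPS and 426 to 659 CPM without. Its part in the result was not tested.

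After LPS old ciliated-like cells carried less of many members than young ones. Of the 28 tested members 11 were lower in old LPS than in young LPS, where 0.847% of all genes were. The median difference was -1.28. In both lanes 28 of the 35 members were lower, and the share of all genes that were is not given here. The smallest p belonged to Xaf1, with 63.5 and 57.4 CPM in old LPS against 183 and 177 CPM in young LPS (-1.55 ± 0.24, adjusted p = 1.46e-04). Parp9 had 39.0 and 33.8 CPM in old LPS against 105 and 126 CPM in young LPS (-1.62 ± 0.26). Parp14 had 37.1 and 41.2 CPM in old LPS against 125 and 89.8 CPM in young LPS (-1.50 ± 0.26). Oasl2 differed by -1.60 ± 0.22, Rtp4 by -0.87 ± 0.15 and Ifit3b, with 8.18 and 2.94 CPM in old LPS against 49.6 and 50.5 CPM in young LPS, by -2.91 ± 0.51. Zbp1, Samd9l, Cmpk2, Bst2 and Ifi44 were the other 5. Of the 11, Zbp1, Parp14, Ifit3b and Ifi44 passed the count filter only through LPS libraries, so the share over all genes is not an even background for them. DESeq2 called 1 member, thinned cells gave 7, and without young LPS 1 there were 6. With the lane as a block Ifi44 did not pass (adjusted p = 0.0634), and Rsad2 (adjusted p = 0.0154) and Ifit1 (adjusted p = 0.00596) did.

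**Figure D4:**
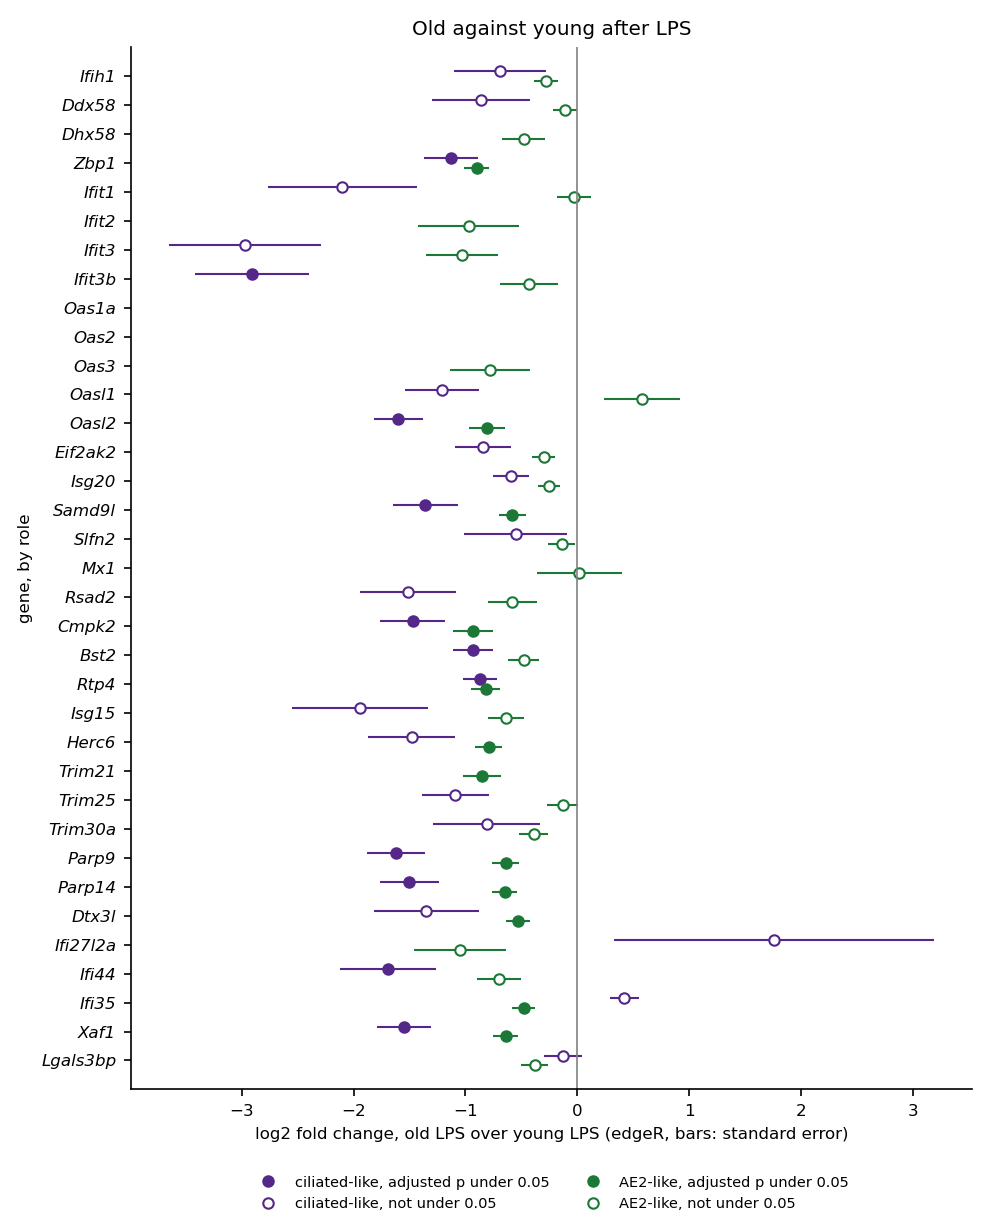
Log2 fold change of old LPS over young LPS for each antiviral gene (rows) in ciliated-like cells (purple) and AE2-like cells (green), with bars for the standard error; filled points passed the test. Nearly all points lie left of 0, with 11 filled in ciliated-like and 12 in AE2-like cells.

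Old control and young control ciliated-like cells differed in no member past the threshold: 0 of 28 passed by edgeR, with 4 at an unadjusted p under 0.05, and 0 by DESeq2, where 0.367% of all genes passed in edgeR. The difference of the LPS change, old minus young, passed for 3 members, where 0.152% of all genes were lower. It was -1.39 ± 0.28 for Rtp4 (adjusted p = 0.0266), -2.75 ± 0.55 for Oasl2 (adjusted p = 0.0484) and -6.02 ± 1.23 for Ifit3b (adjusted p = 0.0266), and its median over the tested members was -1.53. These calls rest on old control 1: without it 0 members passed, and the Ifit3b difference was -0.18; its old control UMIs all lay in 2 cells of that library, and young control had 1. Without old control 2 there were 7, without old LPS 1 there were 5, without old LPS 2 there were 6 and without young LPS 1 there was 1. DESeq2 called 1, the fit with no count filter 5, and the lane as a block added Rsad2 (adjusted p = 0.0452). Ifit3b and Rsad2 passed the count filter only through LPS libraries.

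Set against each other, ciliated-like cells changed less than AE2-like cells for part of the members. The LPS change in ciliated-like minus that in AE2-like cells was tested with both classes of each library in 1 fit. In old mice 15 of 34 tested members had a smaller change in ciliated-like cells, where 3.93% of the 12252 genes tested did, and in young mice 6 did, where 2.56% of all genes did. The median difference was -1.66 in old and -0.51 in young mice, and that of all genes was 0.10 and 0.08. Rsad2, Ifit1, Ifi44, Ifit3b and Oasl1, all among the 15, passed the count filter of either class alone only through LPS libraries. Rsad2 was also among the 6. For these genes the share over all genes is not an even background. The 34 and the medians include Dhx58, Ifit2, Oas1a, Oas2, Oas3 and Trim21, which were not tested in ciliated-like cells alone. Ifi35 differed by -1.92 ± 0.19 in old and -2.39 ± 0.21 in young mice, Bst2 by -1.79 ± 0.24 and -1.22 ± 0.27, Rtp4 by -2.03 ± 0.28 and -1.58 ± 0.34, and Lgals3bp by -1.19 ± 0.22 and -1.23 ± 0.25. Cmpk2 differed by -2.53 ± 0.45 and -2.33 ± 0.46. Rsad2, at 25.8 and 11.8 CPM in old LPS ciliated-like cells against 40.9 and 3.67 CPM in old control, differed by -4.57 ± 0.57 in old and -3.47 ± 0.89 in young mice. Without old control 1 the count in old mice was 4, and Rsad2 no longer passed (-1.24). In young mice the count was 3 without young control 1 and 2 after thinning.

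Levels, unlike changes, were more often higher than lower in ciliated-like cells of young LPS and of both control groups, but not of old LPS. In young LPS 21 of the 35 members had more CPM in ciliated-like than in AE2-like cells in both lanes, and 7 had less. In old LPS 10 had more and 15 had less. Without LPS, 17 had more and 3 had less in young control, and 14 had more and 3 had less in old control. The matching shares over all genes are not given here, so these counts have no background. For Ifit3 the old LPS libraries had 67.3 and 22.1 CPM in ciliated-like cells and 29.4 and 21.4 CPM in AE2-like cells, and the young LPS libraries 429 and 365 CPM in ciliated-like and 66.9 and 36.9 CPM in AE2-like cells.

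**Figure D5:**
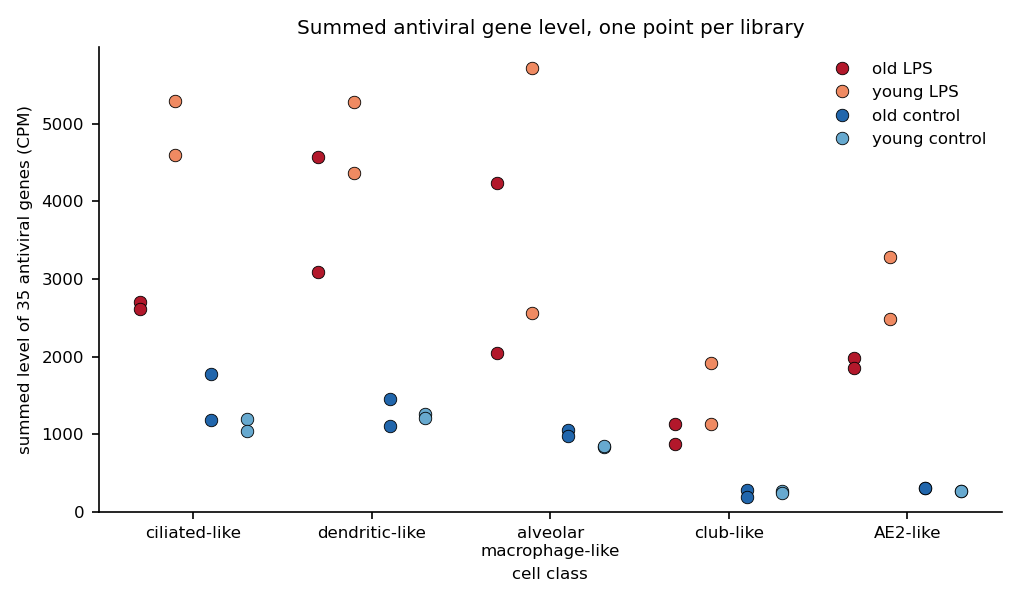
Summed level of the 35 antiviral genes (y axis, CPM) in 5 cell classes (x axis), with 1 point per library, coloured by group. In every class the LPS libraries lie above the control libraries of the same age, and in ciliated-like and AE2-like cells old LPS lies below young LPS.

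Immune cells that remained in the sort carried much antiviral RNA. All immune clusters pooled had member sums of 4055 and 3127 CPM in old LPS and 5089 and 4264 CPM in young LPS. Their controls had 1324 and 987 CPM in old and 1291 and 1182 CPM in young mice. This pool was not tested, because its mix of classes differed between groups. Dendritic-like cells were tested, and there no member passed for a difference by age. In dendritic-like cells the members summed to 4574 and 3088 CPM in old LPS and 4365 and 5287 CPM in young LPS, against 1458 and 1099 CPM in old control and 1259 and 1204 CPM in young control. In old mice 17 of 26 tested members rose, where 13.2% of the 4575 genes tested did, and 1 fell (Samd9l, -1.85 ± 0.40), where 10.3% of all genes did. In young mice 19 rose, where 11.7% of all genes did. The test passed for 0 members in old against young LPS, where 0.0656% of all genes passed, for 0 in the controls, where 0% did, and for 0 in the difference of the LPS change, where 0.0437% did. At an unadjusted p under 0.05 these comparisons had 3, 3 and 4 members, and DESeq2 called 0 in each. Libraries held 36 to 143 such cells, and 18 of the 26 members passed the count filter only through LPS libraries. Cells with LPS lay mostly in a cluster led by Ccl5, Ccl17 and Ccl22, and control cells in 1 led by Cd52, Vim and Cst3. The former held 26 to 50 cells of each LPS library and 5 to 13 of each control library. The LPS changes of this class therefore also compare different mixes of dendritic-like cells, and the part of this shift was not tested. DESeq2 called 11 members at each age, thinned cells 8 at each age, and without young control 2 there were 11 in young mice.

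Zbp1 had 146 and 111 CPM in old LPS dendritic-like cells and 201 and 297 CPM in young LPS, against 24.1 and 9.15 CPM in old control and 0 and 6.66 CPM in young control. Ifit1 had 90.1 and 78.3 CPM in old LPS and 104 and 75.2 CPM in young LPS, against 7.09 and 9.15 CPM in old control and 0 and 0 CPM in young control, and was at least 20.8-fold higher in young LPS. Slfn2 had 693 and 478 CPM in old LPS and 619 and 842 CPM in young LPS, against 346 and 275 CPM in old control and 225 and 273 CPM in young control. In contrast to AE2-like cells, Slfn2 was already high without LPS. Isg15 had 1162 and 581 CPM in old LPS and 876 and 1030 CPM in young LPS, against 58.2 and 9.15 CPM in old control and 0 and 22.2 CPM in young control. Oasl2 changed by 3.26 ± 0.52 in old and 3.65 ± 0.58 in young mice, Bst2 by 0.73 ± 0.22 and 1.48 ± 0.22, Xaf1 by 2.05 ± 0.43 and 2.52 ± 0.40, and Herc6 by 2.30 ± 0.39 and 2.33 ± 0.38. Oasl1 (3.29 ± 0.52) and Ifit3 (2.83 ± 0.57) were among the smallest p in old mice. Old LPS 2, the lower of the old LPS libraries, also held 10503 CPM of the AE2-like LPS gene Lcn2, where the dendritic-like cells of old LPS 1, young LPS 1 and young LPS 2 had 458, 716 and 448 CPM; its part in the result was not tested.

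Alveolar macrophage-like cells, 5 to 40 per LPS library after lavage, had member sums of 4231 and 2052 CPM in old LPS and 5714 and 2562 CPM in young LPS, against 1053 and 976 CPM in old control and 837 and 850 CPM in young control. Club-like cells, 8 to 69 per LPS library, had 870 and 1132 CPM in old LPS and 1923 and 1132 CPM in young LPS, against 280 and 189 CPM in old control and 267 and 239 CPM in young control. These classes held too few cells for a test.

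The rest of the interferon pathway was followed in AE2-like cells by lists of its parts. Of 16 interferon ligand genes none could be tested, and all AE2-like cells together held 1 Ifnk UMI (old control 2) and 1 Ifng UMI (old LPS 1). Of 9 receptor and JAK kinase genes 5 rose and 1 fell after LPS at each age. Of all genes tested, 25.0% rose and 23.0% fell in old mice, and 21.8% rose and 18.2% fell in young mice. Ifngr2, a chain of the interferon gamma receptor, changed by 2.19 ± 0.13 in old and 1.96 ± 0.14 in young mice, and Ifnar2, a chain of the type I receptor, by 1.75 ± 0.11 and 1.62 ± 0.12. None of the 9 differed between old LPS and young LPS. Of the transcription factors, Irf7, which amplifies type I interferon, had 52.7 and 45.7 CPM in old LPS and 95.0 and 77.2 CPM in young LPS, against 3.39 and 3.11 CPM in old control and 2.41 and 2.26 CPM in young control. Irf1, which drives interferon gamma targets, had 66.3 and 78.5 CPM in old LPS and 188 and 175 CPM in young LPS, against 20.8 and 23.4 CPM in old control and 25.8 and 24.9 CPM in young control. Irf1 differed between old LPS and young LPS by -1.32 ± 0.10 and Irf7 by -0.81 ± 0.11.

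Feedback genes split. Of 6, 4 rose and 1 fell in old mice, where 25.0% and 23.0% of all genes did. In young mice 3 rose, where 21.8% of all genes did. Between ages 2 were higher and 2 lower in old LPS than in young LPS, where 1.58% and 2.40% of all genes were. Usp18, which removes ISG15 and blocks the type I receptor, had 31.3 and 33.8 CPM in old LPS and 91.0 and 85.7 CPM in young LPS, against 1.85 and 1.37 CPM in old control and 1.69 and 0.933 CPM in young control. Ptpn2, a phosphatase of JAK kinases, had 185 and 157 CPM in old LPS and 130 and 111 CPM in young LPS, a difference of 0.51 ± 0.11. Socs1, a suppressor of JAK signalling, had 8.75 and 15.6 CPM in old LPS and 65.8 and 43.5 CPM in young LPS, a difference of -2.15 ± 0.30. Of 11 tested sensor adaptors and kinases 5 rose in old mice, where 25.0% of all genes did. In young mice 6 rose and 1 fell, where 21.8% and 18.2% of all genes did. Between ages 1 was lower in old LPS than in young LPS, where 2.40% of all genes were. In the controls 1 was lower in old than in young mice, where 0.622% of all genes passed in either direction. Among the adaptors and kinases that rose after LPS was Tmem173 (STING). It had 53.2 and 49.1 CPM in old LPS and 39.7 and 34.8 CPM in young LPS, against 7.71 and 11.3 CPM in old control and 13.7 and 12.8 CPM in young control.

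Lists of other interferon-induced genes were set beside the members. Over all genes, 25.0% rose in old and 21.8% in young mice, and 2.40% were lower in old LPS than in young LPS. All 15 tested guanylate-binding and immunity-related GTPases rose at both ages, and 12 were lower in old LPS than in young LPS, with a median of -1.88. Irgm1 had 59.7 and 75.0 CPM in old LPS and 246 and 196 CPM in young LPS, against 14.8 and 19.2 CPM in old control and 20.9 and 19.7 CPM in young control. All 15 genes of MHC class I and peptide loading rose at both ages, and 10 were lower in old LPS, with a median of -0.54. Tap1, a peptide transporter subunit, had 103 and 122 CPM in old LPS and 324 and 262 CPM in young LPS, against 16.3 and 17.3 CPM in old control and 13.2 and 16.0 CPM in young control. In this comparison the members' median of -0.58 was nearer to that of the MHC class I genes than to that of the GTPases. In old control against young control, 5 MHC class I genes were higher (median 0.39), 0 GTPases (-0.03) and 0 members (0.07), where 0.622% of all genes passed. The LPS change was smaller in old mice for 10 MHC class I genes (median -1.04), 1 GTPase (-1.87) and 0 members (-0.64), where 0.666% of all genes passed. The difference between lists was not tested.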

How the data were processed

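Values are UMI counts per gene and cell, deposited by the authors with antibody barcode counts in 8 tables, 1 per library. Cell Ranger 3.1.0, STAR, bcl2fastq and Seurat (3.1 and 3.1.5) with build mm10 are named in the submitters' processing notes; how cells were assigned to groups is not given in the sources used here. Symbols came from GENCODE M21 (31011 of 31053 genes matched). Of 14048 barcodes, 11245 had at least 500 genes and at most 20% mitochondrial UMIs. The doublet caller marked 13 cells, too few to count as working, and these were removed, leaving 11232. Cells were clustered with scanpy 1.11.5 (2000 variable genes, 30 components, Leiden resolution 0.5) without 117 interferon-related genes, and clusters were named from fixed markers. The resolution was chosen after cluster names had been seen, because at resolution 1 part of the AE2-like LPS cells stayed unnamed.

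UMIs were summed per library and class and tested with edgeR 4.0.16 (quasi-likelihood, robust, TMM, filterByExpr, the 4 groups in 1 fit, 4 residual degrees of freedom, Benjamini-Hochberg over all genes tested). CPM of single members and of single genes of the interferon lists are scaled by TMM. CPM of single marker genes of other cells, and sums over genes, are not. The standard error is the log2 change divided by the square root of F. Classes needed 20 cells in each library. The fit was also run on counts simulated from AE2-like sums, with the same spread for every gene and changes placed in young LPS only. This run does not cover the other classes or genes whose UMIs lie in few cells. Alternatives were DESeq2, other scalings and filters, cell filters, thinning, clustering choices, leaving out each library, and the lane as a block. The labels say that a number marks a replica experiment on 1 lane, so numbers pair the samples; same-numbered libraries deviated together only weakly (correlation -0.0247 to 0.135 over 11411 genes).

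Named by rule were the members of each role with the largest and smallest LPS change in young AE2-like cells, and up to 6 members with the smallest p in each other comparison; of other lists, up to 3 genes. Others were named to account for all 35, and Isg15, Ifi27l2a, Ifi35 and Ifit3 in single classes were chosen after their values were seen. The members and lists were chosen with earlier results of these data known. The counts over the list of transcription factors are not reported here. Promoter windows came from RefSeq (GRCm38.p6). Figures were drawn with matplotlib 3.10.9.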

Additional observations from a re-analysis of the deposited data

Results flagged for a closer look

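In ciliated-like cells the LPS change differed between ages by a test of the difference itself (old minus young, log2) for Ifit3b (-6.02), Rtp4 (-1.39) and Oasl2 (-2.75). Without old control 1 none of these 3 passed, and the values were -0.18, -1.10 and -1.61.

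The LPS change also differed between ciliated-like and AE2-like cells (ciliated-like minus AE2-like, log2, tested in 1 fit). In old mice this held for 15 members, namely Ifi35 (-1.92), Rsad2 (-4.57), Bst2 (-1.79), Rtp4 (-2.03), Cmpk2 (-2.53), Lgals3bp (-1.19), Oasl2 (-1.88), Ifit1 (-3.17), Ifi44 (-3.78), Xaf1 (-1.80), Ifit3b (-4.08), Samd9l (-1.53), Isg20 (-0.78), Oasl1 (-3.22) and Parp9 (-1.20). In young mice it held for 6 members, namely Ifi35 (-2.39), Cmpk2 (-2.33), Lgals3bp (-1.23), Rtp4 (-1.58), Bst2 (-1.22) and Rsad2 (-3.47). Of the members named here, Rsad2, Ifit1, Ifi44, Ifit3b and Oasl1 passed the count filter of either class alone only through LPS libraries. Without old control 1, 4 members passed in old mice.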

How the results depend on the processing

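Members called are counted here, with DESeq2 in place of edgeR, no count filter, only the groups compared, or cells thinned to 2000 UMIs. In AE2-like cells the count lower in old LPS than in young LPS was 12, and 6 with only the groups compared or after thinning. The count higher in old control was 0, and 1 with DESeq2, 2 with no count filter and 3 with only the groups compared. The count with a smaller LPS change in old mice was 0, and 4 with DESeq2, 6 with no count filter, 2 without cells that clustered with the other treatment (chosen after seeing the data) and 2 with the lane as a replicate block. The block changed the calls of AE2-like cells given in the report; in ciliated-like cells it added Ifit1 and Ifit3 in young LPS, Ifi27l2a in old LPS, Rsad2 and Ifit1 between ages and Rsad2 in the difference of the change, and lost Ifi44 between ages; in dendritic-like cells it added Dtx3l and Ifit2 in young and Ifih1 in old mice. It changed no other member's call.

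In ciliated-like cells DESeq2 gave 12 for 19 members higher in young LPS, 5 for 9 higher in old LPS, 1 for 11 lower between ages and 1 for 3 in the difference of the change, which was 5 with no count filter; thinning gave 7 between ages. The 1 member lower in old LPS became 0 with DESeq2, no count filter, only the groups compared, thinning, or without the 3% highest doublet scores. In dendritic-like cells DESeq2 gave 11 and thinning 8 at each age; the 1 member lower in old LPS became 0 under both, and 1 was lower in young LPS with only the groups compared or without the 3% highest doublet scores. The class difference in young mice was 2 after thinning instead of 6; DESeq2 was not run for it.

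Leaving out 1 library gave ranges for AE2-like cells of 3 to 15 lower between ages, 0 to 1 higher between controls and 0 to 6 in the difference; for ciliated-like cells of 13 to 23 higher in young LPS, 0 to 1 lower in old LPS, 6 to 14 lower and 0 to 1 higher between ages, 0 to 1 higher between controls and 0 to 7 in the difference; for dendritic-like cells of 11 to 22 higher and 0 to 1 lower in young LPS, 0 to 1 lower in old LPS and 0 to 1 in the difference; and for the class difference of 3 to 6 in young and 4 to 19 in old mice. A lone library is then assumed to vary like the others.

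Members per cell, as the mean of 2 libraries in old LPS, young LPS, old control and young control, were 1.55, 2.22, 0.291 and 0.258 at 1000 UMIs and 7.68, 9.25, 1.64 and 1.46 unthinned in AE2-like cells, and 2.22, 3.79, 1.16 and 1.01 at 1000 UMIs and 7.09, 11.1, 3.89 and 3.60 unthinned in ciliated-like cells. The promoter motif followed by a further A stood in a window of 13 of the 27 members (48.1%) and of 3.99% of all genes with a window. The cause of these shifts was not tested. None of the log2 changes of members named by rule and recomputed under these alternatives changed sign; Trim25 in old mice, and Ifit1 and Mx1 between ages, were not among them. Depth limits ciliated-like and dendritic-like cells most, where several members had 3 or fewer control UMIs.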
